A study of Mus musculus with 6 samples.

Results

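The miRNAs of the miR-144/miR-451a cluster and of miR-486, which are known for their abundance in red blood cells, were examined in extracellular vesicles (EVs) released by cultured mouse astrocytes and neural stem cells (NSCs). The members were chosen by name and are mmu-miR-451a, mmu-miR-144-3p, mmu-miR-144-5p, mmu-miR-486a-5p, mmu-miR-486b-5p, mmu-miR-486a-3p and mmu-miR-486b-3p, which is 7 of the 902 mature miRNA rows in the count table. MiR-486a and miR-486b were taken as 1 measurement per arm, so the 7 rows hold 5 measurements. Their 5p rows held nearly equal counts and are taken to share reads, while the counts of their 3p rows differed. All 7 had a row, and 6 passed the filter on low counts, which left out only miR-486b-3p.

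MiRNAs are short RNAs that pair with mRNAs through a seed near their 5′ end and repress them. MiR-144 and miR-451a are processed from 1 transcript that the erythroid factor GATA1 switches on, and miR-451a is known for its unusual maturation, in which AGO2 rather than DICER cuts the hairpin. MiR-486 lies in the gene of the red blood cell membrane protein ankyrin and is known both from red blood cells and from skeletal and heart muscle. Circulating red blood cells have lost their nuclei but keep these miRNAs in abundance.

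Astrocyte EVs came from primary cortical astrocytes and NSC EVs from primary NSCs of the subventricular zone, all of CD1 mice, for which the labels name no genetic change or treatment. Small RNA was sequenced in 3 libraries of either EV type. The astrocytes were grown from dorsal cortices of pups at postnatal day 4 and shaken to remove microglia and oligodendrocytes. They were then split into exosome-free astrocyte medium, and plated at the end in medium with fetal bovine serum. The labels call the NSCs neonatal, and the sources used here do not give their medium. Whether the replicates are separate cultures or animals is not in the labels, and a p-value therefore reflects the spread among these libraries, which may be technical.

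The table gave 177093 to 399211 mature miRNA counts per library, of 44620985 to 111851274 counts on all rows, where 1 read may add to several rows. A library with 0 counts allows up to 3 counts, which is 9.44 to 18.6 CPM (counts-per-million of all mature miRNA counts, scaled by TMM) depending on the library. Intervals and these limits cover counting error only. Astrocyte EV replicate 3 stood apart from replicates 1 and 2: miR-9-5p, a miRNA of neural progenitors, had 15329 counts there and 262 and 388 counts in the others, while the summed level of the mesenchymal miRNAs was 6625 CPM there and 92031 and 98317 CPM in the others. Fragments of Gfap, the intermediate filament of astrocytes, were higher in astrocyte EVs by edgeR's quasi-likelihood test (log2 fold change 1.85, adjusted p = 0.0263). The Gfap call was lost without astrocyte EV replicate 1 or 2, where the fit called 0 rows in either direction. Fragments of the astrocyte genes Slc1a3, Aqp4 and Aldh1l1 did not pass (adjusted p = 0.238 to 0.828 from edgeR). In bulk EV RNA, fewer vesicles of a kind and less RNA per vesicle cannot be told apart.

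The sequences of the miR-144/miR-451a cluster are shown because its 3 mature miRNAs are nearly absent from NSC EVs and have 3 different seeds. They were taken from RefSeq on GRCm38.p6, which held 3 of the 7 members, and the seed, bases 2 to 8, is in capitals.
miR-451a: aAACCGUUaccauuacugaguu
miR-144-3p: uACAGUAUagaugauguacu
miR-144-5p: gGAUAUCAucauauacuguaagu
No other mature miRNA of the RefSeq table had any of these 3 seeds. Bases 2 to 7 of miR-144-3p were shared by 1 other miRNA, miR-101a-3p, whose counts are given beside those of miR-144-3p.

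The hairpins show where each mature miRNA lies, with the mature bases in capitals. In mir-451a the single mature miRNA runs into the loop, while mir-144 gives an arm from each side.
mir-144 hairpin: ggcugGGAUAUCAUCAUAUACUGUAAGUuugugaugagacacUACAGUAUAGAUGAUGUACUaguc
mir-451a hairpin: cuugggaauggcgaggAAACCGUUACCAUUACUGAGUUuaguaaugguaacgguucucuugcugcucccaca
Both lie on the plus strand of chromosome 11 of mm10, mir-144 from 78073005 to 78073070 and mir-451a from 78073170 to 78073241, with 99 bases between them. GENCODE vM21 annotates no other gene over mir-144, and on the minus strand of mir-451a the miRNA gene Mir451b, which was not analysed here. The mir-486a hairpin lies on the plus strand of chromosome 8 from 23142555 to 23142682 and covers all 90 bases of the mir-486b hairpin, which is on the minus strand from 23142573 to 23142662. Both are in an intron of Ank1, and GENCODE vM21 places them also in an intron of the antisense gene Gm15816.

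Each of the miRNAs miR-451a, miR-144-3p, miR-144-5p and miR-486-5p was higher in astrocyte EVs than in NSC EVs, by at least 122-fold for miR-451a and by a log2 fold change above 5 for the other 3. With both miR-486-5p rows, these are 5 of the 6 member rows tested. The opposite arm, miR-486a-3p, did not pass the test. Over all mature miRNAs, 57 of 256 tested were higher in astrocyte EVs (22.3%) and 66 were lower (25.8%) by edgeR's quasi-likelihood test at an adjusted p under 0.05. The count of members that passed can be read only against this background, since a low miRNA passes the filter through the EV type in which it is high. The same 5 rows had every astrocyte EV library above every NSC EV library, as had 28.5% of all tested mature miRNAs, while 64.8% were without overlap in either direction.

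MiR-451a, which limits the translation of the signalling adaptor 14-3-3 zeta during red blood cell formation, had 77, 160 and 152 counts in replicates 1 to 3 of astrocyte EVs, against 0, 0 and 0 counts in replicates 1 to 3 of NSC EVs. In TMM-scaled CPM these were 366, 806 and 478 in astrocyte EVs, a mean of 550.1 ± 229 (SD, n = 3), against 0 in NSC EVs. Astrocyte EV replicate 2 was the highest and no NSC EV library held a count. The level in astrocyte EVs was at least 122-fold higher when 3 counts over the NSC EV libraries together were allowed. The adjusted p was 0.00207 from edgeR, and 2.38e-04 to 0.0190 from edgeR when single libraries were left out.

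MiR-144-3p, known to repress the oxidative stress regulator NRF2 in human red blood cell precursors, had 17, 38 and 63 counts in replicates 1 to 3 of astrocyte EVs, against 1, 1 and 0 counts in replicates 1 to 3 of NSC EVs. These were 80.8, 191 and 198 CPM in astrocyte EVs, against 3.35, 4.49 and 0 CPM in NSC EVs, and the lowest astrocyte EV library was 18 times the highest NSC EV library. Over the groups the level was 55.4 times as high in astrocyte EVs, with a 95% counting interval of 15 to 463 that rests on 2 NSC EV counts. The adjusted p was 0.00362 from edgeR.

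MiR-101a-3p, which has the same bases 2 to 7 as miR-144-3p but lies elsewhere in the genome, had 125, 206 and 269 counts in replicates 1 to 3 of astrocyte EVs, against 140, 263 and 131 counts in replicates 1 to 3 of NSC EVs. Its libraries overlapped, with a log2 fold change of 0.01 (SE 0.45, edgeR adjusted p = 0.986).

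MiR-144-5p, the other arm of the same hairpin, had 17, 42 and 48 counts in replicates 1 to 3 of astrocyte EVs, against 2, 0 and 0 counts in replicates 1 to 3 of NSC EVs. These were 80.8, 212 and 151 CPM in astrocyte EVs, against 6.71, 0 and 0 CPM in NSC EVs, with no overlap. Over the groups the level was 50.2 times as high in astrocyte EVs (95% counting interval 13.6 to 420.2), and the adjusted p was 0.00520 from edgeR. Both NSC EV counts came from replicate 1. Without that library the group held 0 counts, and the fitted log2 fold change, which then depends on the prior count, was 8.09 in place of 5.49. Without NSC EV replicate 2 it was 4.77 (edgeR adjusted p = 0.0369).

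MiR-486a-5p, which targets the transcription factor FOXO1 in muscle, was by far the most abundant member. It had 3980, 7893 and 32125 counts in replicates 1 to 3 of astrocyte EVs, against 486, 206 and 189 counts in replicates 1 to 3 of NSC EVs. These were 18908, 39767 and 101105 CPM in astrocyte EVs, a mean of 53260.0 ± 42727 CPM (SD, n = 3), against 1629.7, 926 and 1169 CPM in NSC EVs, a mean of 1242 ± 358 CPM (SD, n = 3). The lowest astrocyte EV library was 11.6 times the highest NSC EV library, and replicate 3 alone carried most astrocyte EV counts. The fitted log2 fold change of miR-486a-5p was 5.42 (SE 0.74, edgeR adjusted p = 0.00207) and 4.35 (edgeR adjusted p = 6.28e-05) without astrocyte EV replicate 3. Among the mature miRNAs of its library, miR-486a-5p ranked 11, 7 and 3 by count in astrocyte EV replicates 1 to 3, against 49, 81 and 67 in NSC EV replicates 1 to 3.

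MiR-486b-5p had 3981, 7874 and 32053 counts in astrocyte EVs, against 486, 207 and 189 counts in NSC EVs, nearly the counts of miR-486a-5p. The pair therefore adds no second observation, and the counts do not show from which of both hairpins the reads came.

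**Figure D1:**
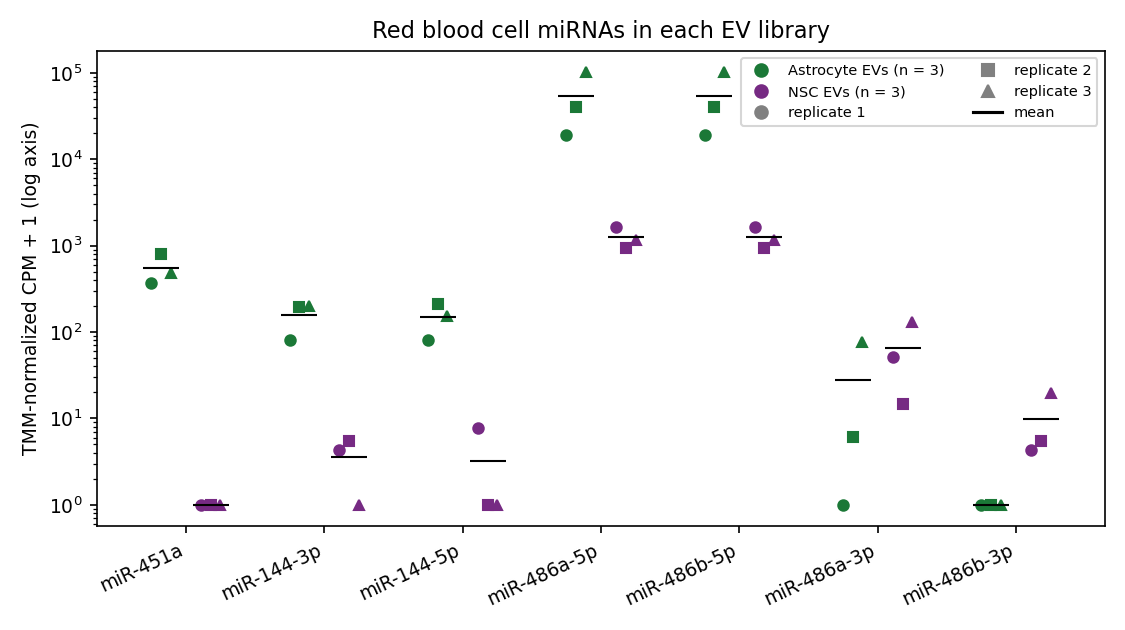
TMM-normalized CPM plus 1 (log axis) for the 7 miRNAs, where each point is a library (circle, square and triangle for replicates 1, 2 and 3) and a black line marks the mean of each EV type. Astrocyte EV libraries lie above all NSC EV libraries for miR-451a, both miR-144 arms and both miR-486-5p rows, while for miR-486a-3p the EV types overlap and for miR-486b-3p astrocyte EVs are at 0 counts.

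With miR-486a and miR-486b counted once, the members took 2.30%, 4.04% and 8.83% of mature miRNA counts in replicates 1 to 3 of astrocyte EVs, against 0.195%, 0.103% and 0.119% in NSC EV replicates 1 to 3. The 95% Wilson interval was 8.74% to 8.92% in astrocyte EV replicate 3 and 0.0902% to 0.118% in NSC EV replicate 2. Every astrocyte EV library lay above every NSC EV library (5.05% ± 3.38 against 0.139% ± 0.0488, SD, n = 3 each, p = 0.1 by the exact permutation test, two-sided, which can give no smaller p with 3 libraries against 3). Without astrocyte EV replicate 3 the difference of the means was 3.03 percentage points in place of 4.91. MiR-486a-5p made up 97.0% to 99.1% of the members' counts in astrocyte EVs, against 90.0% to 98.1% in NSC EVs.

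The miR-144/miR-451a cluster and miR-486 did not vary in step among the astrocyte EV libraries. There were 51.7, 49.3 and 211 counts of miR-486a-5p for each count of miR-451a in replicates 1 to 3. As a share of both together, miR-451a held 1.90% (95% Wilson interval 1.52% to 2.37%) in replicate 1, 1.99% (1.70% to 2.32%) in replicate 2 and 0.471% (0.402% to 0.552%) in replicate 3. Replicate 3 thus had the highest miR-486a-5p level of the series but not the highest miR-451a level.

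Within the cluster the proportions were closer. There were 2.26, 2.0 and 1.37 counts of miR-451a for each count of the miR-144 arms in astrocyte EV replicates 1 to 3. The miR-144 arms held 30.6% (95% Wilson interval 22.8% to 39.7%), 33.3% (27.7% to 39.5%) and 42.2% (36.4% to 48.2%) of the cluster's counts, and these intervals overlapped. MiR-144-3p took 50.0% (34.1% to 65.9%), 47.5% (36.9% to 58.3%) and 56.8% (47.5% to 65.6%) of the 2 miR-144 arms, so an excess of either arm was not detectable at this depth.

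The arms of miR-486 differed far more in abundance, and their proportion did not overlap between the EV types. MiR-486a-3p had 0, 1 and 24 counts in replicates 1 to 3 of astrocyte EVs, against 15, 3 and 21 counts in replicates 1 to 3 of NSC EVs. Its libraries overlapped, with 0, 5.04 and 75.5 CPM in astrocyte EVs, against 50.3, 13.5 and 130 CPM in NSC EVs. On the log2 scale it differed by -1.13 (SE 1.34, edgeR adjusted p = 0.518). Without astrocyte EV replicate 3 it was -4.41 and passed the test (edgeR adjusted p = 0.0193), and without NSC EV replicate 3 it was -0.15 (adjusted p = 0.979).

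As a share of both miR-486a arms, miR-486a-3p made up 0%, 0.0127% and 0.0747% in astrocyte EV replicates 1 to 3, against 2.99% and 1.44% in NSC EV replicates 1 and 2 and 21 of 210 counts in NSC EV replicate 3. In astrocyte EV replicate 1 this is 0 of 3980 counts, which allows a share of up to 0.0754%. The 95% Wilson interval reached 0.111% in astrocyte EV replicate 3 and began at 0.489% in NSC EV replicate 2. On the miR-486a rows the intervals of the EV types thus did not meet. The EV types did not overlap (0.0291% ± 0.0399 against 4.81% ± 4.56, SD, n = 3 each, p = 0.1 by the exact permutation test, two-sided, which can give no smaller p with 3 libraries against 3). Without NSC EV replicate 3 the NSC EV mean was 2.21% in place of 4.81%. On the miR-486b rows the 3p share was 0.205%, 0.481% and 1.56% in NSC EV replicates 1 to 3, a mean of 0.750%. It was 0% in each astrocyte EV library. There the 95% Wilson intervals of the EV types met, reaching 0.0964% in astrocyte EV replicate 1 and beginning at 0.0363% in NSC EV replicate 1. A share within a library does not depend on library size or TMM.

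MiR-486b-3p had 0, 0 and 0 counts in astrocyte EVs, against 1, 1 and 3 counts in NSC EVs. With so few counts, 3 of them in NSC EV replicate 3, a difference was not detectable at this depth. Its positions lie within those of miR-486a-5p, on the other strand. In the astrocyte EV libraries the plus strand row held 43998 counts and the minus strand row 0, so the table's counting kept the strands apart.

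**Figure D2:**
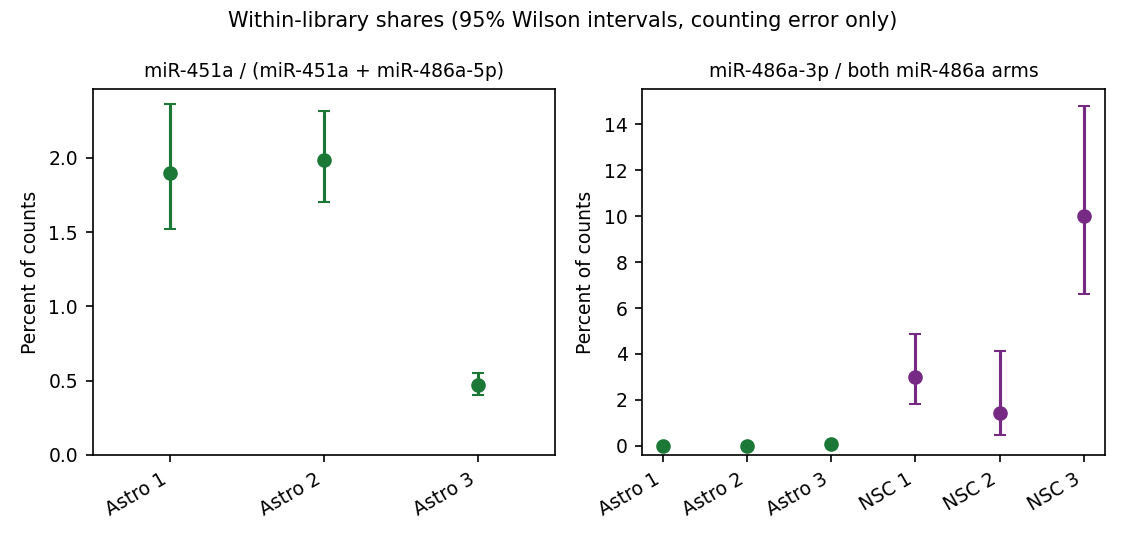
Percent of counts within a library, with 95% Wilson intervals that cover counting error only, for miR-451a among miR-451a plus miR-486a-5p in the 3 astrocyte EV libraries (left) and for miR-486a-3p among both miR-486a arms in all 6 libraries (right). MiR-451a is at 1.90% and 1.99% in replicates 1 and 2 and at 0.471% in replicate 3, and miR-486a-3p stays under 0.1% in astrocyte EVs and is at 1.44% or more in NSC EVs.

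The hairpin rows, which count any read inside the precursor, gave the same order. Mir-451a held 77, 160 and 152 counts in astrocyte EVs, against 0, 0 and 0 counts in NSC EVs, with 0 counts outside its mature miRNA in each library. Mir-144 held 34, 80 and 111 counts in astrocyte EVs, against 3, 1 and 0 counts in NSC EVs, again with 0 outside its arms. For mir-486a 0, 4 and 0 counts lay outside the arms in astrocyte EVs, against 0, 0 and 0 counts in NSC EVs, and for mir-486b 3, 10 and 0 against 5, 11 and 2. Nearly all of this signal was therefore on mature sequence. By edgeR on hairpin rows mir-144 was higher in astrocyte EVs by 5.75 (SE 0.87, adjusted p = 0.00249) and mir-486a by 5.50 (SE 0.78, adjusted p = 0.00226) on the log2 scale, where 23.3% of 258 hairpin rows were higher.

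Ank1, which encodes the ankyrin that ties the membrane skeleton of red blood cells to the membrane, contains miR-486 in an intron, so reads of miR-486 were also counted on the gene's row. The longest of the 3 Ank1 sense rows held 5762, 10348 and 34145 counts in replicates 1 to 3 of astrocyte EVs, against 1549, 1479 and 1406 counts in replicates 1 to 3 of NSC EVs. The fitted log2 fold change of this row was 2.84 (SE 0.37, edgeR adjusted p = 0.0156 over all non-hairpin rows, of which 5.54% were higher and 4.24% were lower). The adjusted p from edgeR was 0.0541 and 0.0650 without astrocyte EV replicate 1 or 2 and 0.0534 without NSC EV replicate 3. The log2 fold changes there were 2.99, 2.89 and 2.83. Without astrocyte EV replicate 1 or 2, 0 of all non-hairpin rows were called. Without NSC EV replicate 3, 4 of 43585 were called higher. The loss of the call in these fits is therefore not particular to Ank1.

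The mir-486a hairpin made up 69.1%, 76.3% and 94.2% of the longest Ank1 sense row in astrocyte EVs, against 32.3%, 14.1% and 14.9% in NSC EVs. With these counts taken out, 1782, 2450 and 1996 counts were left in astrocyte EVs, against 1048, 1270 and 1196 counts in NSC EVs. In CPM of non-hairpin counts without TMM this remainder was 20.8, 34.0 and 17.9 in astrocyte EVs, against 21.9, 28.7 and 23.6 in NSC EVs. With the TMM scaling of the test it was 42.6, 39.2 and 14.1 CPM in astrocyte EVs, against 18.4, 20.2 and 21.7 CPM in NSC EVs. The libraries overlapped on both scales. The log2 fold change was 0.67 with TMM (SE 0.43, edgeR adjusted p = 0.339) and -0.030 without TMM (edgeR adjusted p = 0.982), so the remainder had no stable direction.

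The shorter Ank1 sense rows lie within the longest and are not independent of it. There the hairpin made up 87.1% to 96.8% of the counts in astrocyte EVs, against 17.7% to 40.2% in NSC EVs. Their remainders had log2 fold changes of -0.42 (SE 0.32, edgeR adjusted p = 0.430) and -0.39 (SE 0.32, edgeR adjusted p = 0.464), the opposite sign to the longest row. None of the 3 sense remainders passed the test.

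On the longest antisense row of Ank1, after the mir-486b hairpin was taken out, 5.76, 12.6 and 12.6 CPM of non-hairpin counts (without TMM) were left in astrocyte EVs, against 21.0, 102 and 63.3 in NSC EVs. There the NSC EV libraries were the higher ones, opposite to miR-486b-5p itself. This antisense remainder passed the test, with a log2 fold change of -2.02 (SE 0.52, edgeR adjusted p = 0.0465). Without TMM it was -2.58 (edgeR adjusted p = 0.0157).

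**Figure D3:**
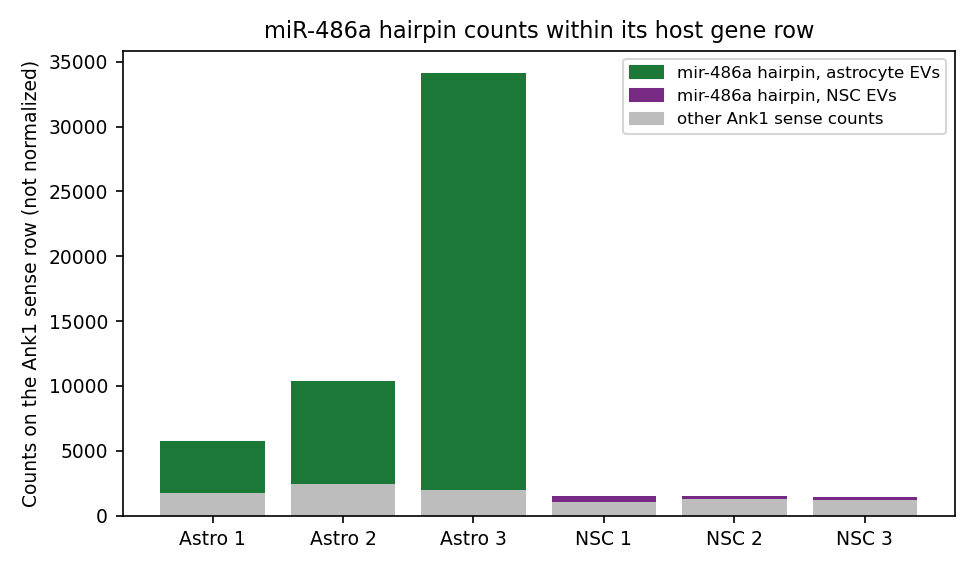
Counts on the longest Ank1 sense row in each library, not normalized, split into counts of the mir-486a hairpin (green in astrocyte EVs, purple in NSC EVs) and all other counts of the row (grey). The grey part ranges from 1782 to 2450 counts in astrocyte EVs and from 1048 to 1270 in NSC EVs, and the hairpin accounts for 94.2% of the bar in astrocyte EV replicate 3.

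Of 29 listed genes known for their role in red blood cells that had a row, 22 were tested. Of these 1 was higher in astrocyte EVs (Ank1, whose row includes miR-486) and 2 were lower, which is 4.55% and 9.09%, beside 5.54% and 4.24% of all non-hairpin rows, and 19 did not pass. With so few calls these shares say nothing particular about the list. Their median log2 fold change was -0.27, and that of all non-hairpin rows tested was -0.04, or -0.54 without TMM. The genes that were lower were Car1, a carbonic anhydrase of red blood cells (-2.22, SE 0.52, edgeR adjusted p = 0.0367), and Bpgm, which makes the regulator of oxygen release 2,3-bisphosphoglycerate (-2.02, SE 0.53, edgeR adjusted p = 0.0495). The call of Bpgm was lost without any single one of the libraries, and that of Car1 without any single one but NSC EV replicate 1. With astrocyte EV replicate 1 or 2 left out, edgeR called 0 of 24 listed genes in either direction, and 0 of all rows. At an unadjusted p under 0.05 from edgeR, 2 listed genes were higher and 3 lower in either setting. Without astrocyte EV replicate 1 this was beside 5162 higher and 4723 lower of 42189 rows. Without astrocyte EV replicate 2 it was beside 5149 higher and 4580 lower of 42002 rows. These counts also say nothing particular about the list.

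Fragments of the globin mRNAs, the main mRNAs of red blood cell precursors, were sparse in all 7 rows of the list. Hba-a1, an alpha globin, had 3, 0 and 113 counts in replicates 1 to 3 of astrocyte EVs, against 1, 18 and 8 counts in replicates 1 to 3 of NSC EVs. Hbb-bs, a beta globin, had 1, 4 and 49 counts in astrocyte EVs, against 5, 7 and 0 counts in NSC EVs. Hbb-b2 had 4, 4 and 32 counts in astrocyte EVs, against 4, 6 and 0 counts in NSC EVs. For these 3 adult globins the EV types overlapped and the highest count was in astrocyte EV replicate 3. Among the embryonic globins, Hba-x had 13, 16 and 9 counts in astrocyte EVs, against 3, 8 and 1 counts in NSC EVs. Hbb-y had 0, 1 and 2 counts in astrocyte EVs, against 4, 4 and 4 counts in NSC EVs, and Hbb-bh1 had 0, 1 and 10, against 0, 2 and 1. Hbb-bh2, a further beta-like globin row, had 9, 15 and 7 counts in astrocyte EVs, against 10, 3 and 22 counts in NSC EVs, and was the only globin row tested (log2 fold change -0.37, edgeR adjusted p = 0.816). Hba-x and Hbb-bh2 were lowest in replicate 3 among the astrocyte EV libraries, and Hbb-y was higher in every NSC EV library. Reads can be shared among the near-identical globin genes.

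Abundant erythroid rows other than Ank1 include Sptb and Fech, which did not pass the test. Sptb, which encodes the beta spectrin of the membrane skeleton, had a log2 fold change of 0.18 (SE 0.30, edgeR adjusted p = 0.724), and Fech, which inserts iron into heme, had -0.57 (SE 0.31, adjusted p = 0.265). Gata1, the factor that drives the cluster, had a log2 fold change of -1.06 (SE 0.45, edgeR adjusted p = 0.159). Alas2, the first enzyme of heme synthesis in red blood cells, had -1.94 (SE 0.56, adjusted p = 0.0633). Slc4a1, the anion exchanger of the membrane, had -0.19 (SE 0.46, adjusted p = 0.819), and Tfrc, the transferrin receptor, had 1.47 (SE 0.39, adjusted p = 0.0517).

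Fragments of mRNAs known as targets were also counted. Nfe2l2, the NRF2 gene that miR-144-3p is known to target, had 2113, 1693 and 28193 counts in astrocyte EVs, against 68, 100 and 62 counts in NSC EVs. The fitted log2 fold change of Nfe2l2 was 6.15 (SE 0.84, edgeR adjusted p = 0.0156). Without astrocyte EV replicate 1 or 2 the edgeR adjusted p was 0.0541 and 0.0586, and without NSC EV replicate 3 it was 0.0534. In these fits the log2 fold changes were 6.43, 6.57 and 6.05, and 0, 0 and 4 of all non-hairpin rows were called higher. Which part of the gene the fragments come from was not tested. Cab39, a target of miR-451a, had 1.02 (adjusted p = 0.0920 from edgeR), and Ywhaz and Foxo1 had log2 fold changes of 0.38 and 0.07 (adjusted p = 0.509 and 0.899).

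Of 13 other miRNAs that are abundant in red blood cells and had a row, 11 were tested, 2 were higher in astrocyte EVs, 2 were lower and 7 did not pass. These are 18.2% in either direction, near the 22.3% higher and 25.8% lower of all tested mature miRNAs, with a median log2 fold change of 0.21, beside -0.06 over all tested mature miRNAs. MiR-22-3p, a widely expressed miRNA, was higher (2.99, SE 0.39, edgeR adjusted p = 0.00207), and so was miR-183-5p (3.0, SE 0.63, adjusted p = 0.00695). MiR-16-5p, which represses cell cycle genes and is abundant in blood, was lower (-1.90, SE 0.38, edgeR adjusted p = 0.00666), and so was miR-25-3p (-1.13, SE 0.33, adjusted p = 0.0264). The call of miR-25-3p was lost without astrocyte EV replicate 1 (adjusted p = 0.131) or 2 (0.0993) or NSC EV replicate 1 (0.162) or 2 (0.0650), when libraries were scaled to their non-hairpin totals (0.0529) and with no filter on low counts (0.198).

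MiR-16-5p had 308, 450 and 558 counts in replicates 1 to 3 of astrocyte EVs, against 1278, 2010 and 1148 counts in replicates 1 to 3 of NSC EVs. It thus ran opposite to miR-451a and miR-486a-5p without overlap of the EV types. MiR-103-3p (-0.97, adjusted p = 0.0586 from edgeR) and miR-107-3p (1.05, adjusted p = 0.0723), which differ in a base near the 3′ end and could share reads, did not pass.

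**Figure D4:**
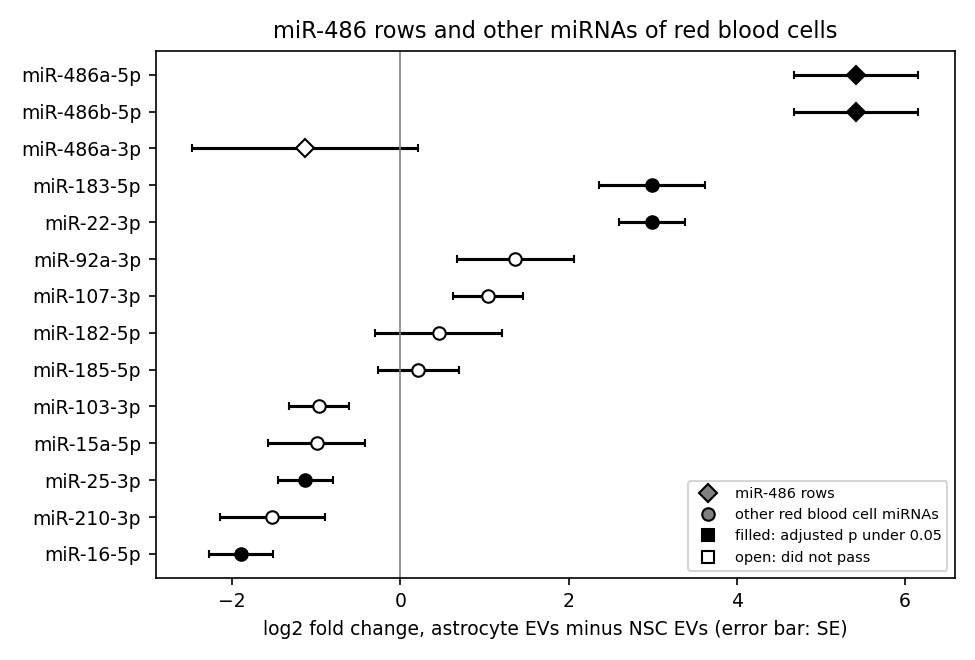
Log2 fold change of astrocyte EVs minus NSC EVs with its SE for the miR-486 rows that were tested (diamonds) and for the 11 tested other miRNAs of red blood cells (circles), where filled symbols passed an adjusted p under 0.05. The miR-486-5p rows lie at 5.42, above each of the other miRNAs, which run from -1.90 for miR-16-5p to 3.0 for miR-183-5p.

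Markers of other cell types are given beside these values, and their part in the results was not tested. Of 6 miRNAs of white blood cells, microglia and platelets, 3 were tested. MiR-142a-5p (3.15, adjusted p = 0.0145 from edgeR) and miR-155-5p (2.93, adjusted p = 0.00617, and 0.0522 without NSC EV replicate 2) were higher and miR-150-5p, a miRNA of lymphocytes, was lower, with 0 counts in all astrocyte EV libraries, against 14, 19 and 13 counts in NSC EVs (adjusted p = 0.00666). The summed level of the 6 was 1010 to 3214 CPM in astrocyte EVs and 260 to 391 CPM in NSC EVs. MiR-142a-3p had 6, 0 and 14 counts, and miR-223-3p, defining for myeloid cells and platelets, had 0, 1 and 5 counts in astrocyte EVs, against 0 counts of each in NSC EVs.

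Both endothelial miRNAs were lower in astrocyte EVs, miR-126a-3p with a log2 fold change of -5.89 and miR-126a-5p with -3.37 (adjusted p = 0.00416 and 0.00443 from edgeR). Their summed level was 69.2 to 191 CPM in astrocyte EVs and 934 to 1730.3 CPM in NSC EVs.

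Of 5 muscle miRNAs with a row, 3 were tested. MiR-206-3p, a miRNA of skeletal muscle, was higher in astrocyte EVs, with 52, 23 and 30 counts, against 1, 1 and 0 counts in NSC EVs (adjusted p = 0.00376 from edgeR). MiR-1a-3p (-1.58, adjusted p = 0.172) and miR-133a-3p (1.24, adjusted p = 0.326), which mark muscle as a whole, did not pass, and miR-208b-3p had 3, 19 and 1 counts, against 0 counts in NSC EVs. The summed level was 173 to 514 CPM in astrocyte EVs and 189 to 229 CPM in NSC EVs, and it was lowest in astrocyte EV replicate 3, where miR-486a-5p was highest.

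MiR-122-5p, made by liver and abundant in serum, had a log2 fold change of 0.85 (adjusted p = 0.175 from edgeR), and miR-192-5p had 0.36 (adjusted p = 0.444). With miR-194-5p, which was not tested, the liver and serum list summed to 2328 to 6701 CPM in astrocyte EVs and 2476 to 2871 CPM in NSC EVs, with overlap. Of 5 mesenchymal miRNAs, the 2 tested were higher in astrocyte EVs, miR-143-3p by 5.79 (adjusted p = 0.00427 from edgeR) and miR-199a-3p by 5.64 (adjusted p = 0.00616, and 0.0581 without NSC EV replicate 2). MiR-199a-5p had 189, 212 and 8 counts in astrocyte EVs, against 1, 0 and 0 counts in NSC EVs, and miR-145a-5p had 40, 34 and 10, against 8, 5 and 0.

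The mesenchymal sum was 6625 to 98317 CPM in astrocyte EVs and 860.0 to 1864 CPM in NSC EVs. Among the astrocyte EV libraries it was lowest in replicate 3, where miR-486a-5p was highest. Of 5 neural miRNAs, 4 were tested and 3 were lower in astrocyte EVs, miR-124-3p of neurons, with 0 counts in each astrocyte EV library, against 46, 157 and 41 counts in NSC EVs, miR-128-3p (-6.33) and miR-7a-5p (-6.88), with adjusted p of at most 0.00433 from edgeR. MiR-9-5p did not pass (-2.69, adjusted p = 0.130). The neural sum was 1487 to 48455 CPM in astrocyte EVs, highest in replicate 3, and 117985 to 159776 CPM in NSC EVs.

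**Figure D5:**
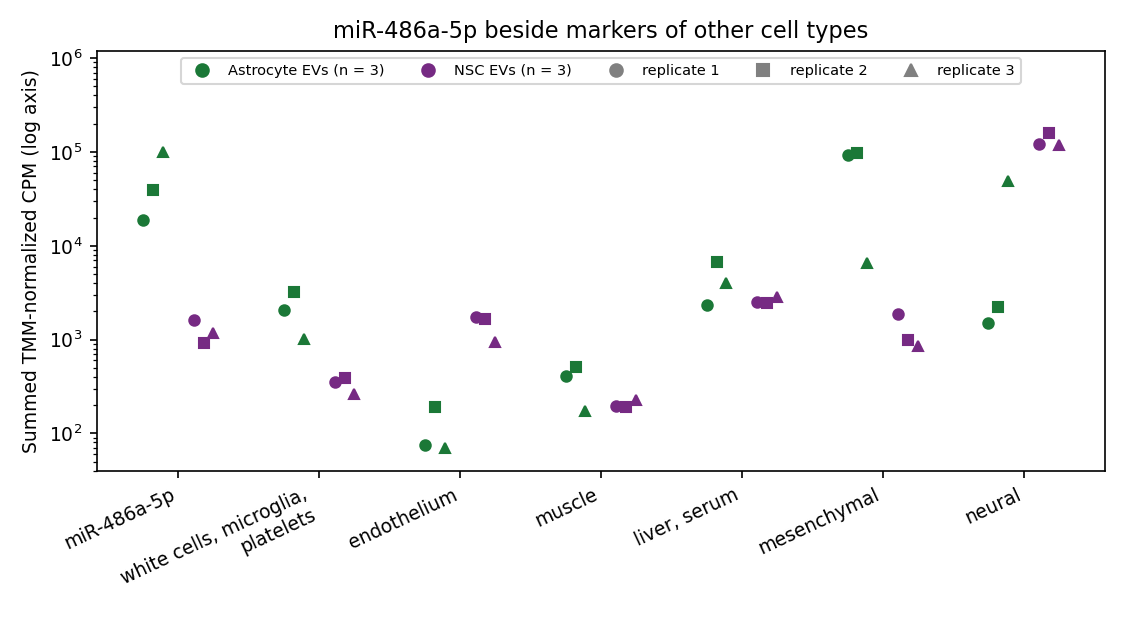
TMM-normalized CPM of miR-486a-5p and summed CPM of 6 marker lists (log axis), where each point is a library (circle, square and triangle for replicates 1, 2 and 3; green astrocyte EVs, purple NSC EVs). In astrocyte EV replicate 3 miR-486a-5p stands at 101105 CPM. There the mesenchymal, muscle, endothelial and white blood cell sums are at their lowest among the astrocyte EV libraries. The endothelial sum is close to that of replicate 1 (69.2 against 76.0 CPM). MiR-155-5p makes up 699 of the 1010 CPM of the white blood cell sum in replicate 3. MiR-142a-3p, miR-223-3p and miR-223-5p, with 14, 5 and 7 counts, are at their highest there, and miR-142a-5p lies between the other astrocyte EV libraries. The neural sum is at its highest in replicate 3, with miR-9-5p at 48244 of its 48455 CPM. The liver and serum sum lies between those of the other astrocyte EV libraries.

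Among tested mature miRNAs outside the members, miR-10b-5p, a miRNA of the HoxD locus, was the most like miR-486a-5p across the 6 libraries, by the root mean square difference of centred log2(CPM + 1), which was 0.44. It had 122, 200 and 509 counts in replicates 1 to 3 of astrocyte EVs, against 8, 5 and 7 counts in replicates 1 to 3 of NSC EVs, and a log2 fold change of 5.11 (SE 0.59, edgeR adjusted p = 0.00146). By the same measure miR-144-3p stood at 0.95, miR-144-5p at 1.08 and miR-451a at 2.08. The measure includes the difference between the EV types. For miR-451a, with 0 counts in every NSC EV library, it depends on the 1 CPM added before the log. The next outside the members were miR-423-5p at 0.99, miR-146b-5p at 1.04, miR-29b-1-5p at 1.04 and miR-183-5p at 1.33. Apart from miR-486b-5p, which shares its reads, no other miRNA of red blood cells examined here was as close to miR-486a-5p as miR-10b-5p was. MiR-29b-1-5p passed the test (log2 fold change 4.06, edgeR adjusted p = 0.0177) but not without NSC EV replicate 2 (0.0844) or 3 (0.0892), while miR-423-5p (3.97, adjusted p = 0.00131) and miR-146b-5p (3.77, adjusted p = 8.95e-04) passed it.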

How the data were processed

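Small RNA of EVs from astrocytes and NSCs was sequenced in 3 libraries each. The authors deposited whole-number counts for 61949 annotated rows, made, per the submitters' processing notes, on mm10 with Bowtie, Bowtie2, SAMtools, bedtools, DESeq, cutadapt and FastQC (no versions). Treatment of reads mapping to several places: not given in the sources used here. The other deposited tables hold group means, fold changes and adjusted p-values of the authors and were not used. The paper names an Illumina kit and a HiSeq, the series record a CleanTag kit and a NextSeq.

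The 902 mature rows were tested separately from the 788 hairpin rows, and all 61161 non-hairpin rows in a further fit, by the quasi-likelihood test of edgeR 4.0.16 (R 4.3.3) after its filter on low counts by group and TMM scaling. A call is a Benjamini-Hochberg adjusted p under 0.05. Log2 fold changes are astrocyte EVs minus NSC EVs. TMM factors ran from 0.796 to 1.16 for mature rows and from 0.488 to 1.42 for non-hairpin rows. No replicates agreed within sampling noise (smallest chi-square per degree of freedom 20.7). Shares were compared by exact two-sided permutation tests. The members and lists were chosen with earlier results of these data known. Named were all members and their hairpins, Ank1, the 5 tested miRNAs most like miR-486a-5p, the most abundant (up to 4) of each list and erythroid genes past the test (up to 10 by fold). Some listed genes are not reported here. Added with their values in view were the globins, Gata1, Alas2, Slc4a1, Tfrc, Ywhaz, the astrocyte genes, miR-101a-3p, miR-107-3p and miR-223-3p. Alternatives were DESeq2 1.42.0, other scalings and filters, left-out libraries, a replicate block, identical rows taken once, miR-486 left out of the library sizes and hairpin rows. Subtracting miR-486 from Ank1, with and without TMM, was added after seeing the data. Scripts were tested on simulated data. Tables and figures were made with scipy 1.17.1, pandas 2.3.3, numpy 2.4.6 and matplotlib 3.10.9 under Python 3.11.15.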

Additional observations from a re-analysis of the deposited data

How the results depend on the processing

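MiR-451a, miR-144-3p, miR-144-5p, miR-486a-5p and miR-486b-5p kept their direction and passed the test in all 16 alternatives, with adjusted p of at most 0.0369 from edgeR or DESeq2. For miR-486a-5p the log2 fold change ran from 4.35 to 5.99 for miR-144-3p from 5.09 to 5.95 and for miR-144-5p from 4.77 to 8.09. With single libraries left out, miR-486a-3p ran from -4.41 to -0.15, the share of the members differed by 3.03 to 6.29 percentage points and the number of higher mature miRNAs ran from 34 (without NSC EV replicate 2) to 69. Of 22 erythroid genes tested with DESeq2, 2 were called higher, beside 4203 of all 41308 non-hairpin rows. With single libraries left out this number ran from 0 to 1, beside 0 to 2786 of all rows. The number called lower was 3 of 22 with DESeq2 (3687 of all 41308 rows) and with no TMM (3217). With a filter at a minimum of 10 counts it was 3 of 20 (1882 of all 39136 rows). It was 1 of 22 with the replicate block (577 of all 41308 rows). With single libraries left out it ran from 0 to 1, beside 0 to 1572 of all rows. With so few calls these numbers say nothing particular about the list. For Ank1 the log2 fold change of 2.84 turned to -0.030 with the mir-486a hairpin subtracted and no TMM. The cause of these changes was not tested.

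The replicate numbers are shared by the groups but no label ties them to a culture or day. Deviations of log2 CPM from the mean of each EV type were correlated between astrocyte EV and NSC EV libraries. The correlations of these deviations for same-numbered libraries were 0.0618, 0.135 and 0.0746. By this measure each astrocyte EV library correlated best with the NSC EV library of its own number. With the replicate block 45 mature miRNAs were higher and 55 were lower, miR-486a-5p stood at 5.15 (adjusted p = 0.00490 from edgeR), and miR-183-5p, miR-29b-1-5p, miR-25-3p, miR-150-5p and Bpgm lost their calls. The depth limits miR-451a and the miR-144 arms, which had 0 to 2 counts in each NSC EV library.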
